A study of Mus musculus with 12 samples.

Results

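The comparison described here asks whether B cells that lack JMJD1C respond to stimulation of the B cell receptor as wild-type cells do. The response of an animal was taken as its log2 CPM (CPM being counts scaled to a common library total) at 2 h minus that at 0 h, and the responses of 3 Jmjd1c KO animals were compared with those of 3 WT animals. All 12 of the 12 libraries of the series entered: follicular (FO) B cells sorted from mouse spleen, KO and WT, each labelled anti-IgM at 0 h or at 2 h, with 3 libraries in each of the 4 groups. Both libraries of an animal were recognised from the number that their library names share, and each library carries a batch label from 1 to 3, a batch holding 1 KO and 1 WT animal. The labels used here do not give the age or strain of the mice, the part of the gene that was removed, or a promoter or Cre that would place the deletion in certain cells. No library of cells kept for 2 h without the antibody was analysed here, so handling and culture are part of both responses.

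JMJD1C is a JmjC-domain histone demethylase, whose close relatives KDM3A and KDM3B remove methyl groups from lysine 9 of histone H3, a mark of silent chromatin. Anti-IgM cross-links the B cell receptor. The receptor's kinases then drive calcium, MAP kinase and NF-kB signalling, which within hours induce immediate early factors such as EGR1, MYC and NR4A1 and lower the genes that hold the cell at rest. MYC in turn drives the growth programme of ribosome assembly, protein synthesis and mitochondrial metabolism.

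Jmjd1c, the targeted gene (chromosome 10, 67096351 to 67256326, RefSeq GRCm38.p6, protein-coding), was lower in all 6 KO libraries than in any WT library, but KO libraries kept many of its reads. At 0 h it stood at 360, 326 and 288 CPM in WT replicates 1 to 3 and at 230, 236 and 196 CPM in KO. At 2 h it stood at 322, 294 and 269 CPM in WT and at 208, 213 and 199 CPM in KO. Its response was near 0 in both genotypes, and the KO response minus the WT response was 0.04 ± 0.16 (SE; log2; unadjusted p = 0.80, edgeR).

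Total counts were between 5666013 and 14153396 per library, so that the upper limit set by a count of 0 was between 0.183 and 1.01 CPM (counting error only). Follicular B cell markers were present in every library: the summed level of the 11 found in the files was between 5824 and 7394 CPM at 0 h and between 3261 and 5782 CPM at 2 h. Summed markers of T and NK cells were between 101 and 228 CPM, and those of myeloid cells between 49.9 and 170 CPM. Batch 1 stood apart. Rn45s, the ribosomal RNA precursor, took 52.3% of the counts of its KO library at 2 h and 24.8% of its WT library at 2 h, against 0.572% and 1.09% in the same animals at 0 h, while in batches 2 and 3 an animal's share at 2 h was within 3 percentage points of that at 0 h. Mki67, a marker of dividing cells, was at 529 CPM in that KO library and at 138 CPM in that WT library, against 8.81 to 97.1 CPM in the other 10. Batches 2 and 3 differed as well. In batch 2 Mki67 went from 67.2 to 97.1 CPM in KO and from 88.6 to 87.6 CPM in WT. In batch 3 it was between 12.4 and 14.5 CPM. The Rn45s share was between 12.9% and 15.5% in batch 2 and between 0.418% and 0.624% in batch 3. Xist was high in the 4 libraries of batch 1 alone, in both genotypes. Its counts there went from 15637 at 0 h to 1828 at 2 h in KO and from 14533 to 9792 in WT. Ddx3y, a Y-linked gene, went from 8 to 77 counts in KO and from 2 to 43 in WT in batch 1. In batches 2 and 3 it had between 1370 and 3932 counts. The batch 1 libraries at 2 h thus differed in these genes from those of the same animals at 0 h, and the source was not tested. Values by batch, without batch 1 or without single animals stand beside many of the results for this reason. In bulk RNA, fewer cells of a type and less RNA per cell cannot be told apart.

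Every animal mounted the response, and the genes that moved were largely shared. Averaged over genotypes, 4734 of 12242 tested genes (38.7%) changed at 2 h at an adjusted p under 0.05 (edgeR quasi-likelihood test, Benjamini-Hochberg adjustment), 2311 higher (18.9%) and 2423 lower (19.8%). These are called responsive genes below; the average of both genotypes does not use the difference between them. Over them the fitted KO response followed the fitted WT response with r = 0.96 (4734 genes, a correlation across genes, which are not independent). No gene was called in both genotypes with opposite signs. Genotypes share no library in this comparison.

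**Figure D1:**
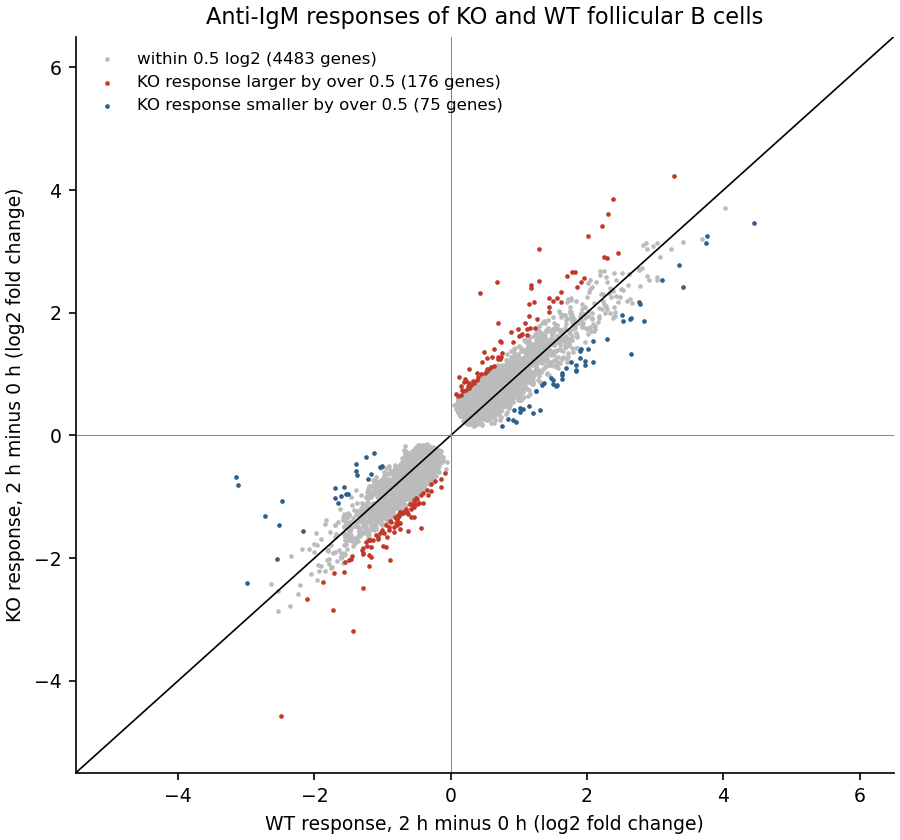
Fitted log2 change at 2 h in KO (vertical) against WT (horizontal) for the 4734 responsive genes, 1 point per gene, with the line of equal response. Points hug the line: 176 genes (red) had a KO response larger by over 0.5 and 75 (blue) one smaller by over 0.5.

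No gene passed the test of the difference between the KO and the WT response: 0 of 12242 (0%) at an adjusted p under 0.05 in edgeR, where the lowest adjusted p was 0.999. DESeq2 and limma also called 0. At an unadjusted p under 0.05 there were 87 genes (0.711%), 56 with the KO response above WT (0.457%) and 31 with it below (0.253%). DESeq2 gave 43 such genes and limma 92. The edgeR count was 373 without KO replicate 3, 40 without WT replicate 1 and 25 without WT replicate 2. With 3 animals a genotype, p-values measure the spread between these animals, which the labels do not describe further. That spread includes shifts at 2 h that both animals of a batch share, because the main fit has no term for batch by time. SEs and intervals include them too, so all of these can be wider than the difference within batches calls for. With that term edgeR gave 451 genes at an unadjusted p under 0.05 and called 0.

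The fitted differences were small for most genes. Their median over all tested genes was -0.01, from -0.44 at the 5th percentile to 0.68 at the 95th, and 282 genes were above 1 and 74 under -1. The median SE was 0.27, and 0.21 among genes at an average log2 CPM of 4 or more. For 3751 of the 4734 responsive genes (79.2%), the 95% interval of the difference lay within -1 and 1, which leaves a difference of 2-fold or more in either direction outside it. Among the 1130 responsive genes that moved by at least 1 on average this held for 601 (53.2%). An interval within -1 and 1 does not exclude smaller differences, and no limit of detection was computed.

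Responses were more often larger than smaller in KO. Among the responsive genes, 3179 had a larger KO response and 1555 a smaller one (67.2% larger), with a median change in size of 0.09. The KO response was larger by over 0.5 in 176 genes (3.72%, called amplified here) and smaller by over 0.5 in 75 (1.58%, called dampened), and it differed by over 1 in 17 and 6. Genes that were lower at 2 h leaned further than genes that were higher: the KO response was larger in 1794 of 2423 of the first and in 1385 of 2311 of the second, with a median change in size of 0.12 and 0.05. These numbers moved with single animals. Without WT replicate 1, 92 genes were amplified and 152 dampened, and 52.1% of responsive genes had a larger KO response. Without both animals of batch 1 the counts were 130 and 138, and that share was 57.1%. Without KO replicate 3 they were 615 and 121, and without KO replicate 2 they were 304 and 124. Each of these fits called its own responsive genes, so the counts are over unlike sets. The sets held 3818 genes without WT replicate 1 and 6324 without batch 1. They held 4136 without KO replicate 3 and 3609 without KO replicate 2.

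The size of the whole response, measured as the slope of an animal's changes on the mean change of the 6 animals over responsive genes, was 1.01, 1.15 and 0.971 in KO replicates 1 to 3 and 0.827, 1.02 and 1.03 in WT. The genotypes overlapped, at 1.04 ± 0.0915 in KO and 0.958 ± 0.113 in WT (SD, n = 3). WT replicate 1 was the lowest animal, and without batch 1 the means were 1.06 and 1.02. The animals of batch 1 differed most over genes that were lower at 2 h, where KO replicate 1 was the highest at 1.21 and WT replicate 1 the lowest at 0.844.

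**Figure D2:**
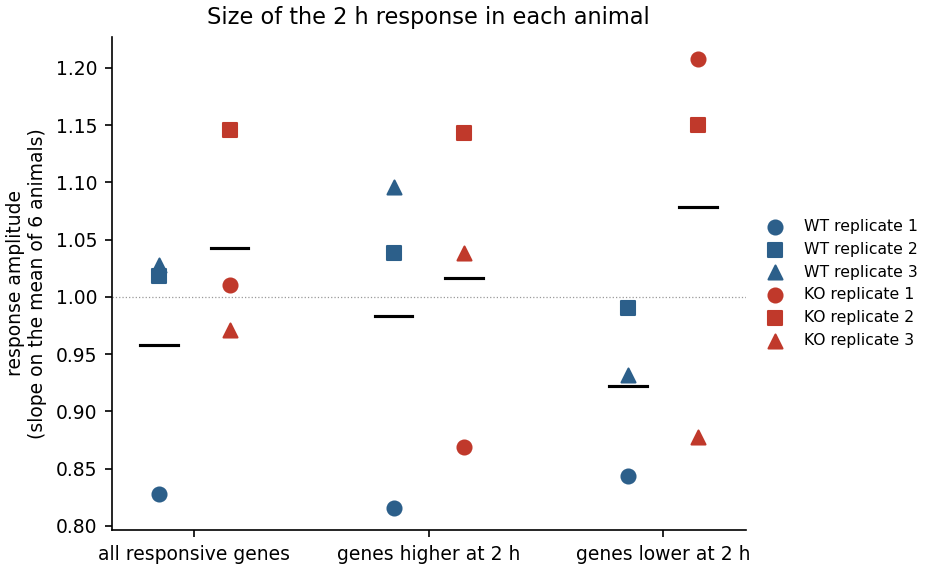
Response amplitude of each animal (slope on the mean response of the 6 animals, vertical axis not starting at 0), for all responsive genes and for those higher or lower at 2 h, with bars at the mean of 3 animals. KO animals, at 0.971 to 1.15, overlap the WT animals, at 0.827 to 1.03.

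The difference was not the same pattern in the 3 batches. Taking the KO minus the WT response within each batch, the differences of batches 1 and 2 correlated with r = 0.21 over the 4734 responsive genes, those of batches 1 and 3 with r = -0.07 and those of batches 2 and 3 with r = -0.06. Batch 1 gave 1274 genes with a larger and 492 with a smaller KO response by over 0.5, batch 2 gave 334 and 107, and batch 3 gave 85 and 146. The KO response was the larger by over 0.5 in all 3 batches for 7 genes and the smaller for 5. At over 1 there was no such gene. Over all tested genes the responses of KO and WT animals of the same batch correlated with r = 0.82, 0.80 and 0.84, above every pair of animals from different batches, of 1 genotype or of both.

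The 20 genes named first are those with the smallest unadjusted p in each direction among genes whose 3 KO and 3 WT responses did not overlap. Such genes numbered 742 of all tested (6.06%), 461 with KO above (3.77%) and 281 with KO below (2.3%). The 10 with a KO response above WT encode parts of mitochondria and of protein turnover in 7 cases: MRPS14 and MRPL17 of the mitochondrial ribosome, NDUFS8 and COX5B of respiratory complexes I and IV, UQCC2, an assembly factor of complex III, PSMA2 of the proteasome core, and NEDD8, a ubiquitin-like modifier. The other 3 were Lancl1, which encodes a glutathione-binding protein, Pdcd5, a gene linked to cell death, and Ncoa4, whose product delivers ferritin for degradation. Their differences were between 0.40 and 0.74, with unadjusted p between 0.0127 and 0.0267 in edgeR, and none passed the adjusted threshold.

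Mrps14 (chromosome 1, 160195215 to 160201186) was at 18.9, 19.8 and 21.5 CPM in WT at 0 h and at 24.0, 24.6 and 25.9 CPM at 2 h. In KO it was at 21.3, 17.4 and 19.4 CPM at 0 h and at 38.9, 27.3 and 36.0 CPM at 2 h. The genotypes started at like levels and every KO library at 2 h was above every WT library. The KO response was 0.81 and the WT response 0.31, a difference of 0.50 ± 0.15 (SE), and it was 0.49 without batch 1.

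Uqcc2 (chromosome 17, 27122665 to 27133891) had the largest difference of the 10, at 0.74 ± 0.26 (SE), at a low level. It went from 8.57, 10.1 and 7.62 CPM to 10.5, 13.7 and 13.6 CPM in WT. In KO it went from 11.4, 6.11 and 8.33 CPM to 26.4, 18.1 and 17.2 CPM. Batch 3 contributed least, with 0.21 against 0.90 and 1.11 in batches 1 and 2. Ncoa4 varied little between animals of a genotype: its responses were 0.95, 1.05 and 0.99 in KO and 0.66, 0.58 and 0.55 in WT. For Ndufs8 they were 0.71, 0.44 and 0.49 in KO and 0.04, 0.18 and 0.15 in WT. In WT the gene was near its level at rest. In all 10 the genotypes differed more at 2 h than at 0 h.

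The 10 genes with a KO response below WT had differences between -1.14 and -0.46 (unadjusted p between 0.0117 and 0.0289 in edgeR, none past the adjusted threshold). Cd44 and D8Ertd82e were higher at 2 h in both genotypes, by less in KO. The other 8 were lower at 2 h and by more in KO: Rbl2, which encodes the pocket protein p130 of resting cells, Tbx6, a T-box factor, Arhgef11, a guanine nucleotide exchange factor, Pias3, which restrains STAT3, Kat6b, a histone acetyltransferase, and Fam102b, Tmem198b and Kbtbd11.

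Cd44 (chromosome 2, 102811141 to 102901669) encodes the receptor for hyaluronan that marks activated lymphocytes. It went from 48.9, 77.8 and 56.7 CPM to 87.7, 135 and 99.4 CPM in WT replicates 1 to 3. In KO it went from 58.7, 74.0 and 53.1 CPM to 80.8, 93.3 and 64.6 CPM. The WT animals were within 0.05 of each other, at responses of 0.84, 0.80 and 0.81, and all KO animals were lower, at 0.46, 0.33 and 0.28. The difference was -0.46 ± 0.14 (SE; 95% interval -0.78 to -0.14; unadjusted p = 0.0117, edgeR). It was between -0.51 and -0.42 under every alternative run and -0.50 without batch 1, and its adjusted p was between 0.845 and 1 over those alternatives.

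Rbl2 (chromosome 8, 91070057 to 91123844) went from 137, 129 and 143 CPM to 84.6, 65.0 and 72.5 CPM in WT and from 123, 132 and 131 CPM to 46.3, 46.0 and 54.4 CPM in KO. All KO libraries at 2 h were below all WT libraries at 2 h, and the difference in response was -0.51 ± 0.16 (SE). Tbx6 (chromosome 7, 126781483 to 126785548) was at 9.58, 7.92 and 9.34 CPM in WT at 2 h and at 2.71, 3.02 and 8.72 CPM in KO, from 14.1 to 22.4 CPM at 0 h in the 6 animals. Its difference of -1.14 ± 0.37 (SE) was -0.28 in batch 3, against -1.67 and -1.59 in the others. Kbtbd11 was lower by 1.70, 1.69 and 1.67 in the KO animals, a spread far smaller than that of the WT animals, at 1.25, 0.96 and 1.43.

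**Figure D3:**
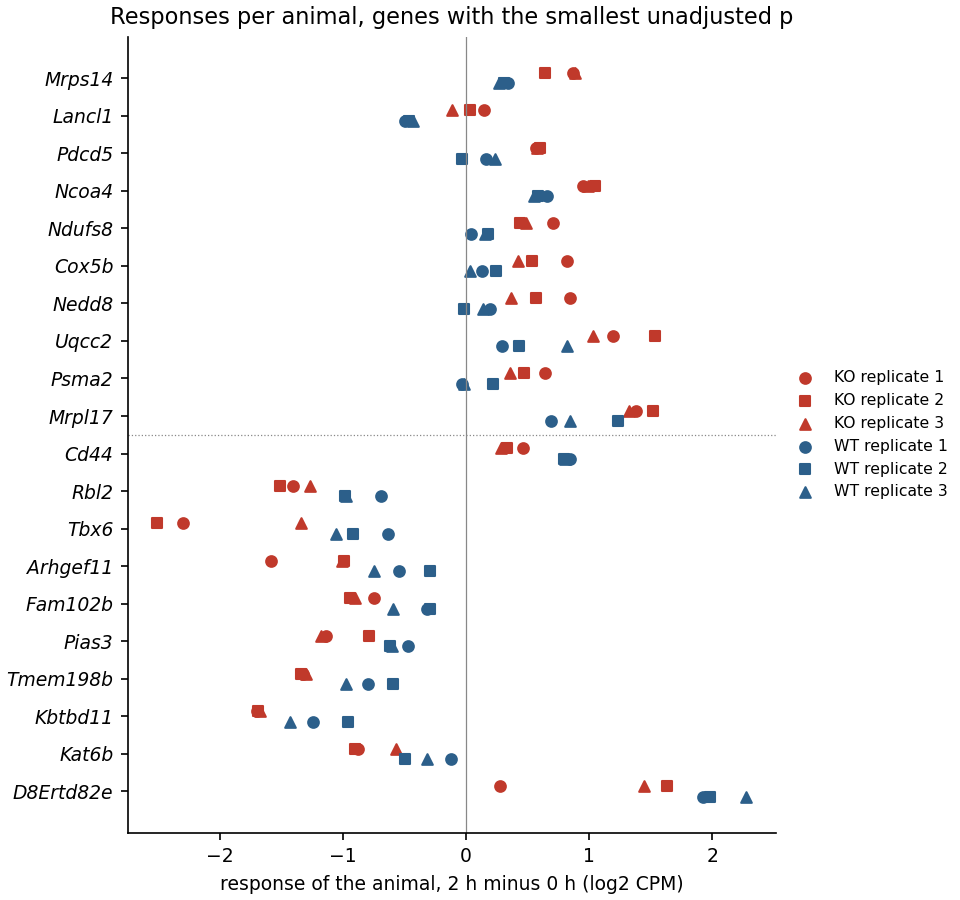
Response of each animal (2 h minus 0 h, log2 CPM, horizontal) for the 10 genes with the smallest unadjusted p and a KO response above WT (top) and the 10 with it below (bottom); red KO, blue WT, shapes mark the replicate. The genes were chosen so that red and blue do not overlap, and Cd44 shows the tightest WT values, at 0.80 to 0.84.

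Among genes that moved by at least 1 on average and whose KO and WT animals did not overlap, those with a larger KO response and the smallest p were Rbl2, Tbx6, Tmem198b, Kbtbd11, Mrpl17 and Aim1, the last with a difference of -0.54 ± 0.20 (SE), or -0.31 without batch 1. Those with a smaller KO response were D8Ertd82e, Dusp3, Bhlhe40, Dtwd2, Tagap1 and Gdpd3. Of these 6, the first 5 were higher at 2 h and Gdpd3, which encodes a lysophospholipase, was lower. Bhlhe40 (chromosome 6, 108660629 to 108666925), a transcriptional repressor of activated lymphocytes, went from 63.8, 78.2 and 61.5 CPM to 314, 418 and 327 CPM in WT and from 99.5, 106 and 70.8 CPM to 263, 488 and 307 CPM in KO. Levels at 2 h overlapped, while at 0 h 2 of the 3 KO libraries were above all WT libraries, and the smaller KO response of -0.47 ± 0.24 (SE) contains that gap at rest; it was -0.22 without KO replicate 1 and -0.26 without batch 1. D8Ertd82e (Prag1 in RefSeq, chromosome 8, 36094827 to 36147787, a pseudokinase scaffold) had a like shape, at 13.4, 21.7 and 16.8 CPM in KO at 0 h against 8.25, 11.6 and 10.7 CPM in WT, with overlapping levels at 2 h and a difference of -0.56 without KO replicate 1. Dusp3, a phosphatase that acts on MAP kinases, had a difference of -0.52 that was -1.27 in batch 1 and -0.01 in batch 3, and it was -0.18 without batch 1.

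For the immediate early programme of the receptor, no gene was called for a difference between KO and WT, which does not exclude one. Of 25 immediate early and activation genes, 16 were responsive and higher at 2 h and 1 lower. The KO response was above WT in 12 and below in 13, with a median difference of -0.02 against -0.01 over all genes, and none was called. Without WT replicate 3 the median was 0.04, with 13 above. With a term for batch by time, 4 of the 25 were at an unadjusted p under 0.05 in edgeR. Over all 12242 tested genes 451 were, and none was called. Myc, a transcription factor gene that drives cell growth, went from 105, 123 and 70.0 CPM to 737, 1272 and 798 CPM in WT and from 110, 125 and 73.8 CPM to 706, 1257 and 631 CPM in KO. KO and WT overlapped at both times, and the difference was -0.19 ± 0.27 (SE; 95% interval -0.81 to 0.43). The differences of Egr1, Egr2 and Nr4a1, early transcription factors, were -0.17, -0.15 and -0.16, and without KO replicate 1 they were -0.055, 0.13 and 0.093. Their intervals, from -0.64 to 0.30, from -0.90 to 0.60 and from -0.87 to 0.55, lay within -1 and 1, that is, short of a 2-fold difference. That of Egr3, another early factor, did not: its difference was -0.39 ± 0.34 (SE), with an interval from -1.19 to 0.41. By batch it was -0.96, -0.21 and -0.01.

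Irf4, Il2ra and Cd83 had lower KO values that shrank without batch 1. Irf4, a factor of B cell activation and plasma cell fate, was at 1685, 2088 and 1937 CPM in WT at 2 h and at 850, 2375 and 1687 CPM in KO. KO replicate 1 was the low one, and the difference of -0.40 ± 0.45 (SE) was -0.06 without batch 1. Il2ra, the alpha chain of the interleukin-2 receptor, had a difference of -0.66 ± 0.52 (SE), and -0.38 without batch 1. Cd83, a surface marker of activation, had -0.22 ± 0.44 (SE), which was 0.06 without batch 1. Prdm1 (chromosome 10, 44437174 to 44528558), which encodes the plasma cell factor BLIMP1, had responses of -0.34, 0.03 and 0.84 in KO and of 0.90, 0.88 and 1.04 in WT. They did not overlap, and its difference was -0.74 ± 0.30 (SE; unadjusted p = 0.0403, edgeR), or -0.51 without batch 1. It contains a gap at rest: Prdm1 was at 19.7, 20.0 and 15.8 CPM in KO at 0 h against 11.9, 12.7 and 17.0 CPM in WT. At 2 h it was at 15.6, 20.4 and 28.4 CPM in KO and at 22.4, 23.4 and 35.1 CPM in WT.

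In the MYC and ribosome assembly list all 35 tested members were responsive and higher at 2 h. Its median response was 1.34 in KO and 1.25 in WT, and the KO response was above WT in 20 and below in 15, with a median difference of 0.04. That balance rested on single animals: 35 were above without KO replicate 1 (median 0.26) and 34 without WT replicate 3 (0.22), but 3 without WT replicate 1 (-0.19), 10 without KO replicate 2 (-0.11) and 14 without KO replicate 3 (-0.04). The nucleolar genes Npm1, Nop58 and Ebna1bp2 had differences of 0.33 ± 0.21, 0.25 ± 0.23 and 0.26 ± 0.19 (SE), and of 0.18, 0.091 and 0.10 without WT replicate 1. In NF-kB subunits, inhibitors and targets, KO was above in 7 and below in 17 of 24, with a median of -0.16. Without batch 1 the median was 0.01 with 13 above, and without KO replicate 1 it was 0.09 with 19 above. Nfkbia, the inhibitor that NF-kB itself induces, had 0.20 ± 0.18 (SE), or 0.10 without batch 1, and Tnip1, a partner of A20, -0.28 ± 0.15 (SE).

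The genes of cytosolic ribosomal proteins, which build the ribosomes that translate messenger RNA, leaned to a larger value in KO as a whole family. All 78 tested had a KO response above WT (48.4% of all tested genes did), and in 50 of the 78 (64.1%, against 3.77% of all tested genes) the 3 KO animals were above the 3 WT animals; none was called. Their median difference was 0.36, with single genes between 0.03 and 0.66. The median responses of the WT animals were 0.06, -0.06 and 0.04, and those of the KO animals 0.73, 0.19 and 0.26. All 78 stayed above with RLE size factors and with Rn45s left out. The family was picked by symbol after its values were seen, and members with many processed pseudogene copies have uncertain counts.

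Rpl32 was at 447, 445 and 449 CPM in WT at 0 h and at 463, 435 and 461 CPM at 2 h. In KO it was at 512, 405 and 470 CPM at 0 h and at 907, 474 and 597 CPM at 2 h. KO replicate 1 at 2 h was far above the rest, and the KO responses were 0.82, 0.23 and 0.34. KO replicate 2, at 474 CPM, was close to the WT libraries at 2 h and had started lowest, at 405 CPM. The fitted difference was 0.45 ± 0.21 (SE), and 0.28 without batch 1. Rps18 behaved alike, with responses of 0.91, 0.32 and 0.30 in KO and of 0.16, -0.01 and 0.01 in WT. As a share of the counts other than Rn45s, the family went from 4.13%, 3.32% and 4.10% to 6.37%, 3.55% and 4.59% in KO. In WT it went from 3.63%, 3.73% and 3.83% to 3.78%, 3.41% and 3.75%. That is a gain in each KO animal and a loss in 2 of the 3 WT animals. KO replicate 2 gained from the lowest share of any library at 0 h. Its 3.55% at 2 h was below the 3.78% and 3.75% of WT replicates 1 and 3.

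The size of the median varied with batch, while its sign was the same in the 3 batches. The family's median was 0.65 in batch 1, 0.25 in batch 2 and 0.22 in batch 3, and 72 of the 78 genes were above WT in each of the 3 batches. Without KO replicate 1 the median was 0.21 with 77 above, and without both animals of batch 1 it was 0.23 with 78 above. The high Rn45s share and the high Mki67 of the KO library of batch 1 at 2 h move with this result. The Rn45s share at 2 h was 15.5% in KO and 15% in WT in batch 2, and 0.464% and 0.418% in batch 3. Markers of other cells move with it as well. The 11 tested myeloid markers had a KO response above WT in 8, with medians of 0.59, 0.19 and 0.21 by batch. Summed over the 18 measured, tested or not, they were between 80.4 and 170 CPM in KO at 2 h and between 67.1 and 100 CPM in WT. The 7 tested erythroid and platelet markers were above in 5, with medians of 1.04, 0.24 and 0.09. Summed over the 12 measured, they were between 6.93 and 115 CPM in KO at 2 h and between 7.61 and 38.7 CPM in WT. No marker of either list was at 0 in all libraries of a group. The part of these values in the result was not tested.

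Families of mitochondrial and proteasome genes leaned the same way. Over all tested genes, 48.4% had a KO response above WT and 3.77% had it above without overlap. Of 78 subunits of the respiratory chain and ATP synthase, 72 had a KO response above WT, 31 of the 78 (39.7%) had no overlap, and the median was 0.33, or 0.63, 0.21 and 0.17 by batch. Atp5g1 and Atp5j, of ATP synthase, had differences of 0.42 ± 0.16 and 0.38 ± 0.14 (SE), and 0.37 and 0.34 without batch 1. Of 76 mitochondrial ribosomal proteins 66 were above, 16 without overlap, with a median of 0.23. Of 37 proteasome subunits 35 were above, 13 without overlap, with a median of 0.23. None of these genes was called. Medians without KO replicate 1 were 0.16, 0.15 and 0.18 in these 3 families, and without both animals of batch 1 they were 0.20, 0.11 and 0.13; for the proteasome the median was 0.15 without WT replicate 1. Mediator subunits, which take part in transcription, were above in 16 of 30, with a median of 0.01, or -0.08 with 13 above without WT replicate 1. Histone methyltransferases of the SET, KMT2 and NSD families were above in 8 of 24, with a median of -0.08. Leaving out KO replicate 1 turned this to 16 above with a median of 0.03, and without KO replicate 2 it was 4 above with -0.18, without WT replicate 1 also 4 with -0.12.

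**Figure D4:**
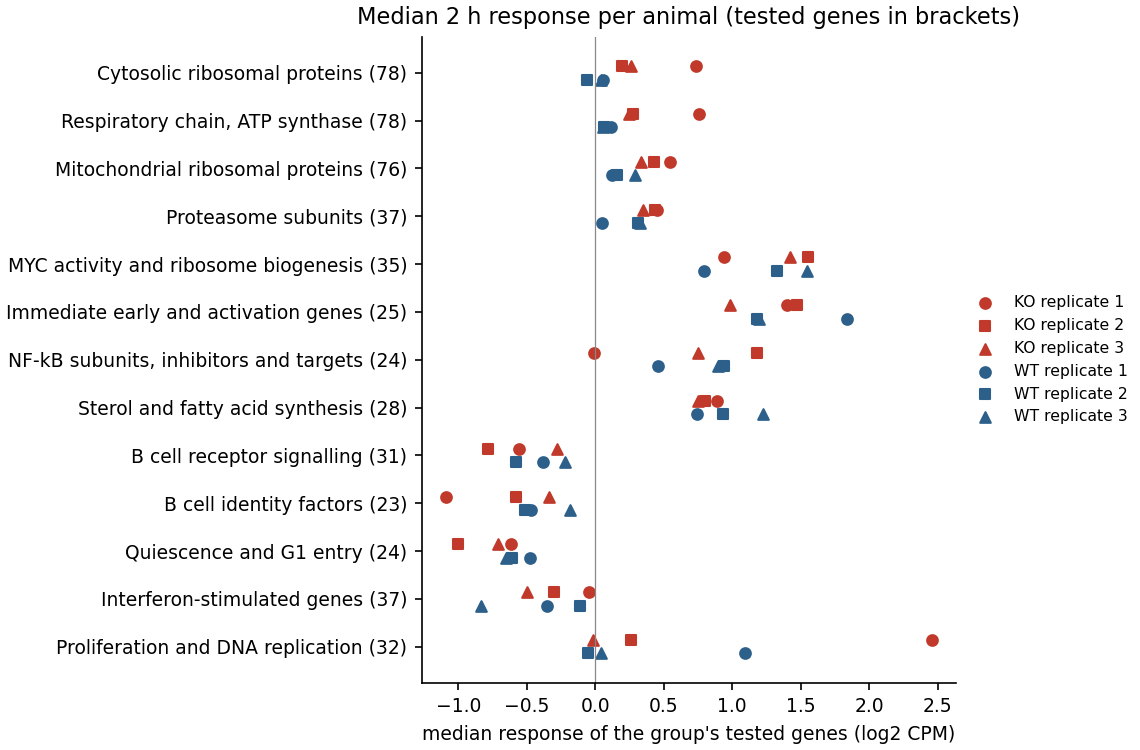
Median response (2 h minus 0 h, log2 CPM, horizontal) of the tested genes of each group in each animal; red KO, blue WT, shapes mark the replicate. In ribosomal proteins and respiratory subunits the 3 KO medians are above the 3 WT medians, while in the proliferation list KO replicate 1 and WT replicate 1 lie far to the right of the other 4 animals.

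Gene groups of the resting and mature B cell leaned to a lower KO value, mostly in batch 1. Over all tested genes the KO response was below WT in 6311 of 12242, the background for the list counts here and below. In B cell receptor signalling, where 18 of 31 genes were responsive and lower at 2 h and 6 higher, the KO response was below WT in 26, with a median of -0.22, or -0.58, -0.11 and -0.03 by batch and -0.07 without batch 1. Without KO replicate 1 it was -0.10 with 11 above WT, and without KO replicate 3 it was -0.40. Stim1, the calcium store sensor, had -0.26 ± 0.16 (SE) and -0.18 without batch 1, and Syk, the kinase at the receptor, -0.22 ± 0.21 (SE) and -0.035. Pik3ap1, an adaptor between the receptor and PI3 kinase, had responses of -0.37, 1.18 and 1.58 in KO and of 1.30, 1.62 and 1.77 in WT, where KO replicate 1 was the low animal, and its difference of -0.74 was -0.32 without batch 1. Nfatc2, a calcium-driven factor, had a positive difference, at 0.32 ± 0.20 (SE), or 0.14 without batch 1.

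Factors of B cell identity were below WT in 21 of 23, with a median of -0.24, or -0.69, -0.07 and -0.08 by batch, and 22 of 23 were below without batch 1 at a median of -0.08. Without KO replicate 1 the median was -0.08 with 7 above, and without KO replicate 3 it was -0.38. Ets1, which restrains plasma cell differentiation, went from 1258, 1439 and 1412 CPM to 657, 522 and 698 CPM in WT and from 1249, 1473 and 1285 CPM to 287, 396 and 605 CPM in KO. Replicates 1 and 2 of KO were the lowest at 2 h, and the difference of -0.56 ± 0.31 (SE) was -0.25 without batch 1. Pou2af1, the coactivator of octamer factors, had -0.32 ± 0.22 (SE), and -0.11 without batch 1. Follicular markers themselves had a median of -0.29, which was -0.82, -0.04 and 0.03 by batch, -0.01 without batch 1 and -0.02 without KO replicate 1. The lower marker sum of the KO library of batch 1 at 2 h, at 3261 CPM, moves with these groups, and its part in them was not tested.

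Homing receptors were below WT in 17 of 18 with a median of -0.23, and in 11 of 18 at -0.03 without batch 1. Without KO replicate 1, 9 of 18 were above, at a median of -0.02, and without KO replicate 3 the median was -0.41. Ccr6, the receptor for CCL20, had a response of -0.99 in KO replicate 1 against 0.79 to 1.36 in the other 5 animals, and its difference of -0.84 ± 0.50 (SE) was -0.17 without batch 1. S1pr3, a sphingosine phosphate receptor, rose most among them, by 3.72 in KO and 4.02 in WT. Itgb1, the beta-1 integrin, was the single member above WT, at 0.37 ± 0.19 (SE) and without overlap, from 0.54 to 1.14 in KO and from 0.29 to 0.53 in WT. Its difference was 0.84, 0.16 and 0.10 by batch, 0.19 without KO replicate 1 and 0.13 without batch 1.

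In the list of quiescence and entry into G1, 13 of 24 genes were responsive and lower at 2 h. The KO response was above WT in 10 and below in 14, with a median of -0.12 that was -0.01 without batch 1. Rbl2 and Foxo4 were among those lower by more in KO, Foxo4 with -0.35 ± 0.17 (SE) and no overlap, or -0.21 without batch 1. Klf2, which keeps lymphocytes at rest, was lower by 1.60 in KO and 1.68 in WT, a difference of 0.08 ± 0.22 (SE) that was -0.08 without batch 1. Ptpn22, a phosphatase gene linked to autoimmunity, had a difference of -0.41 ± 0.23 (SE), and -0.11 without batch 1. Its KO libraries started higher, at 83.4, 76.8 and 88.0 CPM at 0 h against 44.3, 47.4 and 66.3 CPM in WT. At 2 h the mean was still higher in KO, at 126 CPM against 104 CPM, so the difference contains that gap at rest. The list of autoimmunity-linked genes to which it belongs was below WT in 18 of 23, with a median of -0.24 that was -0.07 without batch 1. It was -0.02 with 10 above without KO replicate 1, and without KO replicate 3 it was -0.37.

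Chromatin genes of the family of JMJD1C showed the same batch dependence. Of 20 histone demethylases the KO response was below WT in 16, with a median of -0.17, or -0.48, -0.08 and -0.02 by batch. It was -0.01 with 9 above without KO replicate 1, and without KO replicate 3 it was -0.31. Kdm3a and Kdm3b, the closest relatives, had differences of -0.30 ± 0.21 and -0.19 ± 0.18 (SE), and -0.13 and -0.09 without batch 1. Kdm7a, a demethylase that was lower at 2 h in every animal, had -0.50 ± 0.31 (SE), and -0.14 without batch 1. In H3K9 methyltransferases, HP1 proteins and DNA methylation genes, 10 of 20 were above and 10 below, with a median of -0.01.

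Among metabolic lists, sterol and fatty acid synthesis had median responses of 1.02 in KO and 1.03 in WT, and amino acid supply with tRNA synthetases 1.04 in both. The balance between genotypes moved with single animals. Of 28 amino acid and synthetase genes, 11 had a KO response above WT (median -0.04), but 23 without KO replicate 1 (0.16), 3 without WT replicate 1 (-0.27) and 7 without KO replicate 2 (-0.23). Of 28 sterol and fatty acid genes, 10 were above (median -0.06), but 16 without KO replicate 1 (0.015), 6 without WT replicate 1 (-0.17) and 8 without KO replicate 2 (-0.20). Sqle, an enzyme of cholesterol synthesis, had -0.47 ± 0.22 (SE). For Sqle the KO libraries at 0 h were at 19.1, 24.2 and 27.1 CPM against 13.6, 17.0 and 20.0 CPM in WT, so that the levels at 2 h, of 59.5 to 121 CPM in both genotypes together, were reached from a higher start. In glycolysis and hypoxia the median difference was 0.09, and it was -0.02 without batch 1, 0.01 without KO replicate 1 and 0.18 without KO replicate 3.

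The difference in proliferation genes varied widely between batches. The KO response was above WT in 30 of 32, against 48.4% of all tested genes. The median was 0.42, which was 1.10, 0.25 and -0.12 by batch. It was 0.14 without batch 1, where 22 of 32 were above. Leaving out KO replicate 1 alone turned the direction, to 8 of 32 above and a median of -0.32, while without KO replicate 3 the median was 0.996, without WT replicate 1 it was 0.86, without KO replicate 2 it was 0.80, without WT replicate 3 it was 0.16 and without WT replicate 2 it was 0.11. Pcna, the replication clamp, varied less: its responses were 1.24, 1.22 and 1.16 in KO and 0.87, 0.87 and 1.03 in WT, without overlap, and its difference of 0.28 ± 0.15 (SE) was 0.23 without batch 1. Interferon-stimulated genes, of which 16 of 37 were responsive and lower at 2 h, were above WT in 21, with a median of 0.18 that was 0.20, -0.19 and 0.27 by batch and 0.04 without batch 1. It was -0.08 with 15 above without WT replicate 3, 0.05 without KO replicate 1 and 0.41 without KO replicate 3.

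Transcript length moved with the difference too. Length here is the median over all annotated transcripts of a gene, so a gene in a short bin can also have longer ones. The median difference was 0.04 for 4499 genes with such a length under 1 kb, and it was -0.10 for 726 genes over 4 kb. Within batch 1 these medians were 0.10 and -0.25, within batch 2 they were 0.04 and -0.05, and within batch 3 they were 0.00 and -0.01. The 10 genes named above with a KO response above WT had a median length of 731 bases, and the 9 of the other 10 that had a length had one of 2335. Among genes under 1 kb, all 75 of ribosomal proteins were above WT with a median of 0.37, against 54.8% of 4424 other genes with a median of 0.03. The part of length in the differences between genotypes, those of ribosomal proteins included, was not tested.

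**Figure D5:**
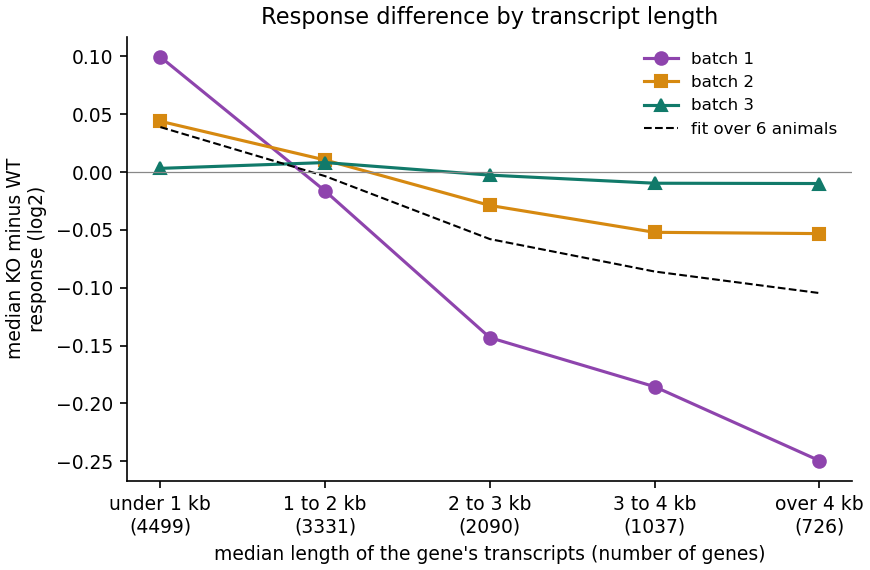
Median KO minus WT response (log2, vertical) of genes in 5 bins of transcript length (number of genes under each bin), for the pair of animals of each batch and for the fit over 6 animals (dashed). The slope is steep in batch 1, from 0.10 to -0.25, shallow in batch 2 and nearly flat in batch 3.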

How the data were processed

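Each deposited file held the raw counts of 1 library by gene symbol, which the authors had not normalized. Reads were aligned with STAR to mm10, per the submitters' processing notes. Version, counting tool, strand setting and annotation were not given in the sources used here. Reads of overlapping and antisense genes could therefore not be told apart. Poly(A) RNA was selected, per the labels' protocols.

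From 24046 symbols, filterByExpr on the 4 groups kept 12242. Library sizes were scaled with TMM. edgeR 4.0.16 (R 4.3.3) fitted a quasi-likelihood model with the animal as a block and a 2 h response for each genotype, and the contrast was the KO response minus the WT response. P-values were two-sided and adjusted with the Benjamini-Hochberg method over all tested genes, with a threshold of 0.05. The SE comes from the F statistic, and intervals are 95%. CPM and per-animal log2 CPM (prior count 2) were computed here. The fit was tested on simulated data. These held no shift at 2 h shared by the animals of a batch, so they do not show how the test behaves where there is one. No pair of libraries in a group agreed within sampling noise.

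The pairing comes from the library names: both times of an animal carry the same number. Deviations from the group means correlated with r between -0.40 and 0.59 (median 0.36) over the 6 animals. Both animals of batch 1 were negative, at -0.40 in KO and -0.19 in WT. The median was 0.52 between libraries of the same batch and other genotype, and -0.28 between different batches. These values therefore do not separate pairing by animal from likeness within a batch.

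The genes named were Jmjd1c, the 10 with the smallest p in each direction whose responses did not overlap (average log2 CPM of at least 1), the 6 with a larger and the 6 with a smaller KO response and the smallest p among genes that moved by at least 1 and did not overlap, and members of the gene lists. Predicted genes, receptor segments and sex-linked markers were left out. The comparison and the lists were chosen with earlier results of these data known, and families by symbol (ribosomal proteins, respiratory chain, proteasome and others) after values were seen here. Alternatives were RLE factors, other filters, other blocks, DESeq2 1.42.0, limma 3.58.1 on per-animal differences, Rn45s left out, each animal left out and batch 1 left out. Positions are from RefSeq GRCm38.p6. Lengths are the median over a symbol's transcripts in GENCODE, for 95.4% of tested genes.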

Additional observations from a re-analysis of the deposited data

Results flagged for a closer look

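Isg20, an exonuclease gene induced by interferon, had a KO minus WT difference in response of 0.57 ± 0.33 (SE; unadjusted p = 0.126, edgeR; not called after Benjamini-Hochberg adjustment). It stood apart because every KO animal was higher at 2 h, by 0.49, 0.17 and 0.39, and every WT animal lower, by -0.14, -0.19 and -0.27. Levels were low: 3.97, 4.46 and 6.28 CPM in WT at 0 h and 3.59, 3.88 and 5.18 CPM at 2 h, against 5.98, 5.54 and 5.0 CPM and then 8.46, 6.28 and 6.62 CPM in KO. The difference was 0.55 without batch 1. It was chosen from among the genes named here for this pattern.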

How the results depend on the processing

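The count of genes called for the KO minus WT difference was 0 in each direction under all 16 alternatives. For amplified and dampened genes, 176 and 75, a size threshold of 1 gave 17 and 6, and the animal block with a response of its own for each batch gave 559 and 153. Without both animals of batch 1 they were 130 and 138. Leaving out 1 animal at a time gave between 92 and 615 amplified and between 61 and 152 dampened; fewer animals enter these fits. Without the pairing (no replicate block) they were 208 and 63 and no gene was called, and the batch as a block gave 230 and 79. Each fit called its own responsive genes, between 3211 and 6669, so amplified and dampened genes were counted over unlike sets. At an unadjusted p under 0.05 the count was 39 without the block, 86 with the batch block, 451 with the batch by time term (lowest adjusted p 0.882) and 87 as reported. Of 1296 values of 81 single genes under the alternatives, 1285 kept their direction and 75 genes never turned. With each animal left out in turn, 6 genes changed sign: Cd83 ranged from -0.59 to 0.25, Egr2 from -0.39 to 0.13, Irf4 from -0.69 to 0.13, Nr4a1 from -0.36 to 0.093, Jmjd1c from -0.012 to 0.070 and Klf2 from -0.067 to 0.25. Without both animals of batch 1, Cd83 was at 0.056 and Klf2 at -0.075. The cause of each was not tested. Response amplitudes of the 6 animals moved by less than the spread between animals with other prior counts, with RLE factors and over 500 genes. Depth limits the precision for KO replicate 1 at 2 h, where Rn45s left the fewest reads for other genes, and for genes near 1 CPM.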
